A study of Homo sapiens with 2 samples.

Results

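The SLC25 genes encode the mitochondrial carriers, a family of transport proteins, most of them in the inner mitochondrial membrane. Members were all rows of the deposited gene table whose symbol is SLC25A followed by a number. There were 50 such rows of 20323, carrying 48 distinct symbols. Of these rows 40 reached 20 counts in at least 1 library and were judged, out of 12270 genes judged in the whole table.

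The cells were MDA-MB-231, an established human cell line of triple-negative breast cancer. One library came from cells given a negative-control small interfering RNA (siRNA) and the other, the knockdown library, from cells treated with an HNRNPF siRNA. HNRNPF encodes an RNA-binding protein that acts in splicing and in 3' end formation, and messenger RNA was compared with and without its depletion. With a single library on each side, replicate spread is unknown and no p-value was computed. The 95% counting intervals, called intervals from here on, cover counting error only, and higher and lower refer to these 2 libraries alone. The HNRNPF siRNA library was identified by the authors' name for the table, since its own column carries only the code name of an siRNA.

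The control library held 20654622 estimated counts and the HNRNPF siRNA library 20134572. HNRNPF had 6373 counts in control cells and 2451 after knockdown, a log2 ratio of -1.37 (counting interval -1.44 to -1.30). The label of the line was checked on a list of markers. All 6 markers of this mesenchymal line were abundant. They had 145 to 1723 FPKM (fragments per kilobase of transcript, scaled to 1000000 fragments) in the control library. In the other library they had 133 to 1690 FPKM. Of 5 markers listed as low or absent in this line, the hormone receptor PGR had 0 counts in both libraries and ESR1 had 3 and 8. The rest were detected, ERBB2 at 17.4 and 19.9 FPKM, GATA3 with 99 and 89 counts and FOXA1 with 76 and 95. Of 13 markers of blood, vessel, fibroblast, muscle and liver cells 11 stayed under 20 counts in both libraries, VWF and CD3E at 0. The others were the fibroblast marker COL1A1, with 109 and 118 counts, and the vessel marker PECAM1, with 97 and 70. The 13 together summed to 3.43 FPKM in control cells and 5.46 FPKM after knockdown.

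Mitochondrial carriers are built from repeated pairs of membrane-spanning helices around a central binding site, and they switch between a state open to the cytosol and a state open to the matrix. By this switching they exchange nucleotides, phosphate, organic acids, amino acids, metal ions and cofactors across an inner membrane that is otherwise closed to them. Carriers are made in the cytosol and inserted by the TIM22 translocase with the help of small chaperones of the intermembrane space. In tumour cells they are known for tying glycolysis, glutamine use and lipid synthesis in the cytosol to respiration in the matrix.

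As a family the carriers lay close to their control level. The 40 judged members had a median log2 ratio of 0.025 in counts scaled to library size, HNRNPF siRNA over control, beside a median of 0.0011 over all judged genes; the members' median was 0.051 with total counts and 0.014 with DESeq2 size factors. A log2 ratio above 0 was found for 21 members and one below 0 for 19, against 50.2% of all judged genes above 0; SLC25A37 and SLC25A40, just below 0, lay just above it with scaling by total counts. Only SLC25A27 differed by 1.5-fold or more, and it was higher; the shares past that fold over all judged genes were 3.49% in the higher and 2.75% in the lower direction, and 1 and 0 of 40 members are near them. From the lower to the upper quartile the members spanned -0.11 to 0.14 and all judged genes -0.15 to 0.15. Within 0.32 of 0 on the log2 scale were 37 of the 40 members, or 92.5%, and 79.7% of all judged genes. Among genes with at least 100 counts in either library, where counting error is smaller, the same shares were 92.1% of 38 members and 84.4% of all genes.

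The counting interval lay above 0 for 9 members, where 21.4% of all judged genes had such an interval, and below 0 for 4 members, where 24.4% did. Of those above 0, 8 are described here, SLC25A27, SLC25A28, SLC25A16, SLC25A22, SLC25A15, SLC25A39, SLC25A6 and SLC25A5. SLC25A16 is among them by counts alone, since its FPKM ratio had the opposite sign. Those below 0 were SLC25A32, SLC25A3, SLC25A23 and SLC25A46. Both tallies depend on the scaling. The interval of SLC25A44 began at -0.00025 and would lie above 0 with total counts. The interval of SLC25A36 ended at 0.0041 and would lie below 0 with DESeq2 size factors.

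**Figure D1:**
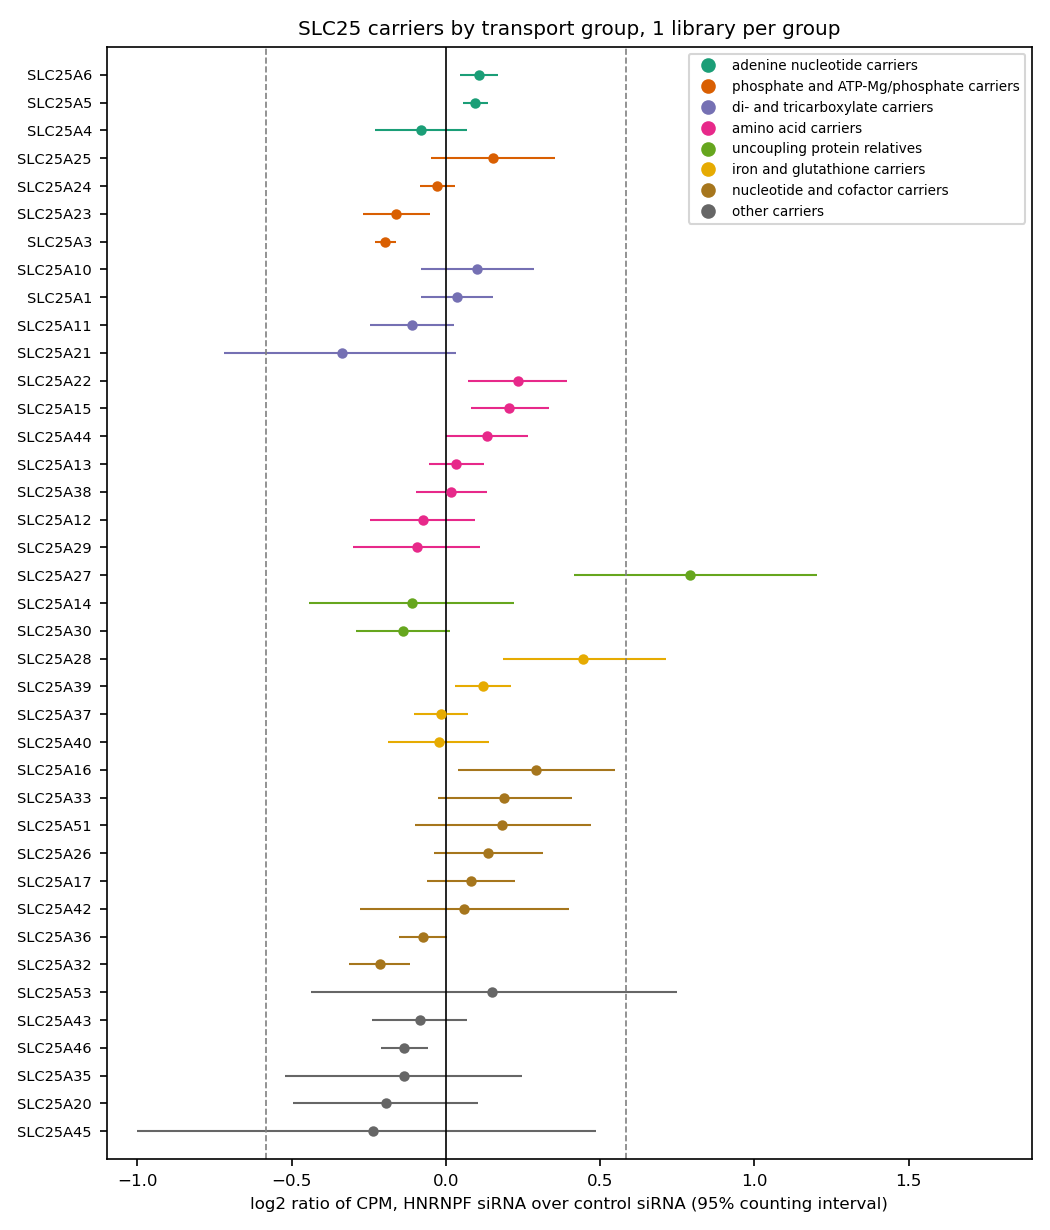
Ratio of counts per 1000000 (CPM) on a log2 scale, HNRNPF siRNA over control siRNA, for 39 judged SLC25 genes grouped by what they transport. Points are single ratios from 1 library per group, bars are exact 95% counting intervals and dashed lines mark 1.5-fold; SLC25A27 at 0.79 is the only point outside the dashed lines.

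Levels within the family spanned 3 orders of magnitude, and by FPKM a few genes held most of the transcripts. On the authors' FPKM scale, which corrects for transcript length, SLC25A3 stood at 812 FPKM in control cells and 691 FPKM after knockdown, SLC25A5 at 347 and 377 FPKM, and SLC25A6 at 134 and 147 FPKM. These 3 genes were the only members above 100 FPKM in both libraries and made up 66.5% of the family's summed FPKM in control cells and 64.9% after knockdown. Of the family's summed counts they made up 45.0% and 44.3%. At the other end 14 members were under 10 FPKM in both libraries, down to SLC25A53 at 0.37 and 0.42 FPKM. SLC25A24 at 68.8 and 68.5 FPKM and SLC25A39 at 63.2 and 67.7 FPKM came next in both libraries. Below them SLC25A46, at 42.3 and 39.3 FPKM, and SLC25A1, at 38.0 and 39.7 FPKM, changed places. All SLC25 rows together had 62017 counts in control cells and 60486 after knockdown, a log2 ratio of -0.025 (counting interval -0.041 to -0.0088), which became 0.00073 when libraries were scaled by total counts, so no direction is given for the sum. Without SLC25A3 the summed log2 ratio was 0.024 (counting interval 0.0054 to 0.042), 0.049 with total counts and 0.013 with DESeq2 size factors, where the interval included 0 (-0.0058 to 0.031).

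**Figure D2:**
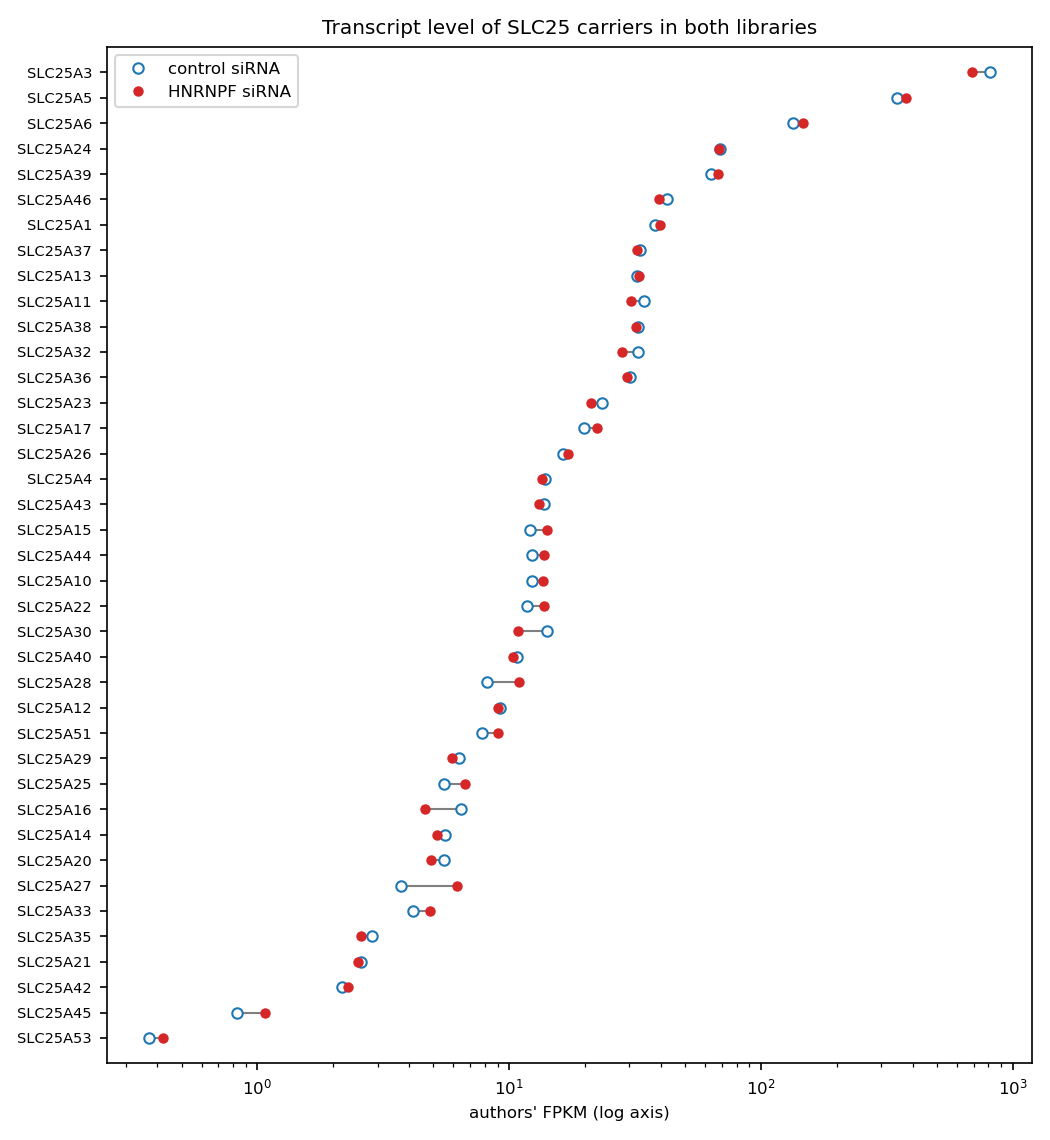
The authors' FPKM of 39 judged SLC25 genes on a log axis, with open points for the control siRNA library and filled points for the HNRNPF siRNA library. SLC25A3, SLC25A5 and SLC25A6 stand above 100 FPKM in both libraries, and wide gaps are seen at SLC25A27, SLC25A16 and SLC25A28.

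The ADP/ATP carriers, which export ATP made in the matrix and take in ADP, were slightly higher in summed counts, through SLC25A5 and SLC25A6. SLC25A5, the form typical of proliferating cells, had 9367 counts in control cells and 9933 after knockdown, a log2 ratio of 0.096 (counting interval 0.055 to 0.14). SLC25A6, a broadly expressed form, had 4013 and 4290 counts and a log2 ratio of 0.11 (counting interval 0.045 to 0.17). The intervals of both genes lay above 0, and the genes stood at 107% and 108% of their control levels. SLC25A4, the heart and muscle form, had 766 and 719 counts (log2 ratio -0.080, counting interval -0.23 to 0.068), and the germ cell form SLC25A31 had 1 count in the control and 0 in the other library. Their summed counts were 14147 and 14942, a log2 ratio of 0.090 (counting interval 0.057 to 0.12). The mix of forms was close to the same in both libraries, with SLC25A5 at 70.1% and 70.2% of the group's summed FPKM and SLC25A6 at 27.1% and 27.3%. GENCODE release 29 names 9 pseudogenes of SLC25A5 and 6 of SLC25A6; the deposited counts of both genes are whole, but the sources used here do not give how reads shared with such copies were assigned.

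Phosphate transport was represented by the most abundant carrier of the family, and it was lower. SLC25A3 (ENSG00000075415, GRCh38 chromosome 12, 98593591 to 98606379, plus strand) imports the phosphate that ATP synthase joins to ADP. It had 14543 counts in control cells and 12596 after knockdown, 87.3% of the control level, with a log2 ratio of -0.20 (counting interval -0.23 to -0.16). The ATP-Mg/phosphate carriers, which adjust the matrix pool of adenine nucleotides and most of which respond to calcium, did not share one direction. SLC25A23 was lower, with 1456 and 1292 counts and a log2 ratio of -0.16 (counting interval -0.27 to -0.052). SLC25A24, the main form in these cells, had 4913 and 4782 counts (log2 ratio -0.028, counting interval -0.086 to 0.030). SLC25A25 had a log2 ratio of 0.15 (counting interval -0.049 to 0.35), and SLC25A41 had 0 and 1 count. SLC25A5 and SLC25A6 thus lay on the other side of 0 from SLC25A3, with intervals that did not overlap its own, while the interval of SLC25A4 did. The SLC25A3 FPKM was 2.34 times that of SLC25A5 in control cells and 1.83 times after knockdown. By counts the genes stood closer, at 14543 and 9367 in control cells and 12596 and 9933 after knockdown. The count and FPKM of SLC25A3 together imply a length of 867 bases in control cells, where its principal transcript has 1678 bases. The FPKM ratio of these genes therefore depends on the length used.

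The carriers of organic acids had intervals across 0, and all but SLC25A21 had small ratios. SLC25A1, which exports citrate for lipid synthesis, had 1212 and 1233 counts (log2 ratio 0.036, counting interval -0.080 to 0.15). SLC25A10, the dicarboxylate carrier, had a log2 ratio of 0.10, and SLC25A11, the oxoglutarate carrier of the malate-aspartate shuttle, one of -0.11. SLC25A21, which carries oxodicarboxylates of lysine and tryptophan breakdown, had the lowest ratio of all judged members. It had 138 and 108 counts, a log2 ratio of -0.34 (counting interval -0.72 to 0.031), and its level per length was nearly the same in both libraries, 2.58 and 2.52 FPKM. A second row with the symbol SLC25A10, under another gene identifier whose GENCODE exons share bases with both SLC25A10 and its neighbour MRPL12, had 0 counts in both libraries.

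Among the amino acid carriers 5 of 7 judged members were above 0 by counts, against 50.2% of all judged genes. By the authors' FPKM 4 were above 0, where SLC25A38 turned to -0.030. The interval excluded 0 for SLC25A22 and SLC25A15. SLC25A22, a glutamate carrier, had 595 counts in control cells and 694 after knockdown (log2 ratio 0.23, counting interval 0.073 to 0.39). SLC25A15, which exchanges ornithine and citrulline for the urea cycle, had 952 and 1090 counts (log2 ratio 0.21, counting interval 0.080 to 0.33). They stood at 117% and 115% of the control level. The aspartate/glutamate carriers of the malate-aspartate shuttle were near 0, at 0.033 for SLC25A13, the more abundant form at 32.1 and 32.9 FPKM, and -0.076 for SLC25A12. The glycine carrier SLC25A38, needed for haem synthesis, had a log2 ratio of 0.018, the branched-chain amino acid carrier SLC25A44 one of 0.13, and SLC25A29, which carries basic amino acids, one of -0.095. SLC25A18, another glutamate carrier, had 7 and 5 counts and was not judged, and the ornithine carrier SLC25A2 had 0 in both libraries.

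The uncoupling protein relatives held the member with the largest ratio. SLC25A27 (ENSG00000153291, GRCh38 chromosome 6, 46652915 to 46678193, plus strand), also called UCP4 and best known from brain, had 87 counts in control cells and 151 after knockdown. Its log2 ratio was 0.79 (counting interval 0.42 to 1.20), 1.73-fold higher, and its level was 3.73 FPKM in control cells and 6.20 FPKM after knockdown. The lower end of that interval lay under 1.5-fold. The related SLC25A14 had 160 and 147 counts (log2 ratio -0.11, counting interval -0.44 to 0.22), and SLC25A30, a relative named for kidney, had 744 and 670 (log2 ratio -0.14, counting interval -0.29 to 0.013). Neither interval overlapped that of SLC25A27. The difference thus lay in 1 low-abundance gene of 3.

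Of the carriers of iron and glutathione, SLC25A28 and, by less, SLC25A39 were higher, and SLC25A37 and SLC25A40 were near control. SLC25A28 (ENSG00000155287, GRCh38 chromosome 10, 99610522 to 99620609, minus strand) is mitoferrin-2, which brings iron into mitochondria of most cell types. It had 209 counts in control cells and 283 after knockdown, a log2 ratio of 0.44 (counting interval 0.19 to 0.71) and 1.36-fold higher. SLC25A37, mitoferrin-1, which is best known from red cell precursors, had 2146 and 2104 counts (log2 ratio -0.017, counting interval -0.10 to 0.070). In these cells mitoferrin-1 was the more abundant form, at 4.05 times the FPKM of mitoferrin-2 in control cells and 2.95 times after knockdown. SLC25A39, which imports glutathione, had 1895 and 2044 counts (log2 ratio 0.12, counting interval 0.029 to 0.21), and its relative SLC25A40 had a log2 ratio of -0.024.

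Carriers of nucleotides and cofactors were above 0 by counts in 7 of 9 judged members, against 50.2% of all judged genes. Their median log2 ratio was 0.14. By the authors' FPKM, where SLC25A16 turned, 6 of 9 were above 0 and the median was 0.087. SLC25A16, linked to coenzyme A in the matrix, had 236 and 287 counts (log2 ratio 0.29, counting interval 0.040 to 0.55), but its FPKM went the other way, as described below. SLC25A32, which carries folate and flavin cofactors, was lower, with 1839 and 1572 counts and a log2 ratio of -0.21 (counting interval -0.31 to -0.12). The intervals of the other members named here included 0. Log2 ratios were 0.19 for SLC25A33 and -0.074 for SLC25A36, both pyrimidine nucleotide carriers, 0.18 for the NAD carrier SLC25A51, 0.14 for the S-adenosylmethionine carrier SLC25A26, 0.081 for the peroxisomal carrier SLC25A17 and 0.059 for the coenzyme A carrier SLC25A42. SLC25A52, a close relative of SLC25A51, had 1 count in the control and 0 in the other library. A second row with the symbol SLC25A32 had 0 in both. Its GENCODE exons share 2547 bases with those of SLC25A32 on the same strand. The sources used here do not give how reads from shared bases were assigned, so this 0 does not show absence.

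The other carriers were below 0 by counts in 5 of 6 judged members, where 50.2% of all judged genes were above 0. Their median log2 ratio was -0.14. By the authors' FPKM, where SLC25A45 turned to 0.33, 4 of 6 were below 0 and the median was -0.083. SLC25A46, an outer membrane member of the family that takes part in mitochondrial shape, had 2976 counts in control cells and 2690 after knockdown (log2 ratio -0.13, counting interval -0.21 to -0.059). SLC25A20, which brings acylcarnitines in for fatty acid oxidation, had 202 and 175 counts (log2 ratio -0.19, counting interval -0.50 to 0.10). For the less characterised members log2 ratios were -0.085 for SLC25A43, -0.14 for SLC25A35, -0.24 for SLC25A45 and 0.15 for SLC25A53, each with an interval that included 0. SLC25A45, with 36 and 30 counts, and SLC25A53, with 48 and 53, were the judged members nearest the minimum. The nearest ones under it were SLC25A34, with 7 and 8 counts, and SLC25A18. SLC25A47 and SLC25A48 had 0 counts in both libraries, where 0 counts allow up to 3 counts, or 0.147 CPM in the control and 0.148 CPM in the knockdown library.

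For 4 members the ratio of counts and the ratio of the authors' FPKM parted, so the transcript length implied by both values together differed between the libraries. That length was computed for all 40 judged members. It was shifted by 0.20 or more on the log2 scale in SLC25A16, SLC25A45, SLC25A21 and SLC25A30, or 10% of the members, against 8.46% of all judged genes with a value. This measure was chosen after the values were seen. SLC25A16 (ENSG00000122912, GRCh38 chromosome 10, 68477999 to 68527474, minus strand) had the largest shift, from an implied length of 1780 bases in the control to 3079 bases in the knockdown library. Its counts were higher in the knockdown library while its FPKM was lower, 6.42 in the control and 4.63 in the other, and the log2 fold change in the authors' deposited table was -0.47. GENCODE release 29 lists 7 transcripts of SLC25A16, from 263 to 6529 bases, and no direction is drawn for this gene.

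In the other 3 genes the shifts were smaller. SLC25A45 went from 2100 to 1392 bases, although on 36 and 30 counts, and its FPKM was 0.83 and 1.07. SLC25A21 went from 2598 to 2133 bases, and SLC25A30 from 2556 to 3061 bases, with SLC25A30 at 14.1 and 10.9 FPKM. For SLC25A30 the log2 fold change in the authors' deposited table was -0.37, beside -0.14 from counts. The sources used here do not give which of the tools named by the submitters set these lengths, and no file used here holds counts per transcript.

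**Figure D3:**
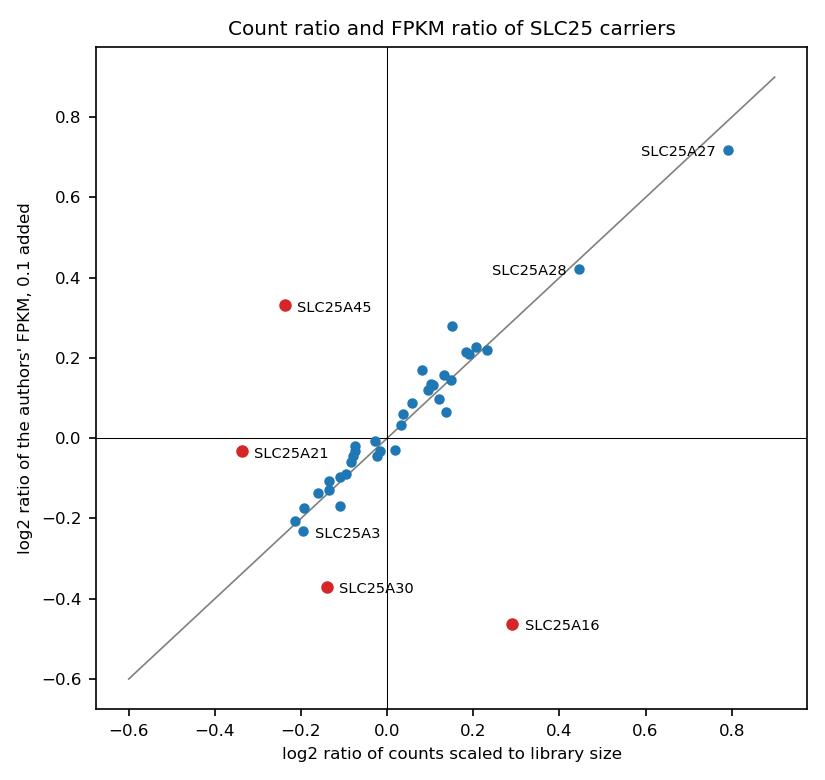
Log2 ratio from counts (horizontal) against log2 ratio from the authors' FPKM with 0.1 added (vertical), HNRNPF siRNA over control, for 39 judged SLC25 genes; the grey line marks equality. SLC25A16, SLC25A45, SLC25A21 and SLC25A30, drawn larger, are the genes whose implied transcript length shifted by at least 0.20 on the log2 scale, and SLC25A16 lies at 0.29 by counts and -0.46 by FPKM.

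In these libraries genes whose 3' untranslated region (UTR) holds the letters GGAAGAA, a heptamer, tended to be lower, a pattern first seen in the same data, so the carriers were searched for it. The letters were searched on the transcript strand of the longest principal 3' UTR of each gene in GENCODE release 29. A copy was present in 9 of 40 judged members and in 20.1% of all judged genes with a 3' UTR. Over all judged genes with the heptamer the median log2 ratio was -0.077 and 61.8% were below 0. Genes without it had a median of 0.013 with 47.2% below 0, and their 3' UTRs were shorter, with a median of 891 bases against 2831.5 bases; the part of UTR length was not tested. By counts 4 of the 9 SLC25 genes with the heptamer were below 0, and their median log2 ratio was 0.13, beside 0.018 for the 31 without it. Without SLC25A16 the first median was 0.058, and by the authors' FPKM 5 of the 9 were below 0 and the medians were -0.033 and 0.034. No difference between these SLC25 genes is drawn from the heptamer, since its direction turned with the measure. The genes with the heptamer held both ends of the family, SLC25A21 at -0.34 and SLC25A27 at 0.79. The 3 lower genes with intervals below 0 other than SLC25A46, namely SLC25A3, SLC25A23 and SLC25A32, had no copy.

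The sites of 8 genes are shown, from the lowest to the highest log2 ratio, because by counts the same letters stand in carriers on both sides of control. Each line gives 30 bases of the transcript strand on GRCh38 from GENCODE release 29, with the heptamer in capitals.
SLC25A21, chr14:36679710-36679739, minus strand: tgccatttttaGGAAGAAtgtatagaacag
SLC25A46, chr5:110761858-110761887, plus strand: tgaaatactggGGAAGAAaatggattggaa
SLC25A14, chrX:130373068-130373097, plus strand: ggcctcctgatGGAAGAAcagtggggtggt
SLC25A44, chr1:156211602-156211631, plus strand: ggaggaatgctGGAAGAAcataaagagcag
SLC25A33, chr1:9582913-9582942, plus strand: ctgctagacagGGAAGAAgtgtcgcatttt
SLC25A15, chr13:40809808-40809837, plus strand: ttaaactttatGGAAGAAcctctattttgc
SLC25A16, chr10:68480294-68480323, minus strand: taagtcagaatGGAAGAAtatttaaaataa
SLC25A27, chr6:46676834-46676863, plus strand: gataggaatgtGGAAGAAcacatacatagt

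By counts the upper 3 of these genes lay below control and the lower 5 above it, SLC25A16 with the opposite sign by FPKM. The intervals of SLC25A21, SLC25A14, SLC25A44 and SLC25A33 included 0, so the side of these genes is within counting error. That of SLC25A44 began at -0.00025 and would lie above 0 with scaling by total counts. In SLC25A16 the heptamer begins at base 3120 of a 3' UTR of 5431 bases, while its other annotated transcripts are at most 2295 bases long in all, and in SLC25A14 it begins at base 129 of 411. The ninth gene with a copy, SLC25A37, was near 0, and above it with scaling by total counts. A match of these letters is a description of the annotated sequence and not a tested site.

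**Figure D4:**
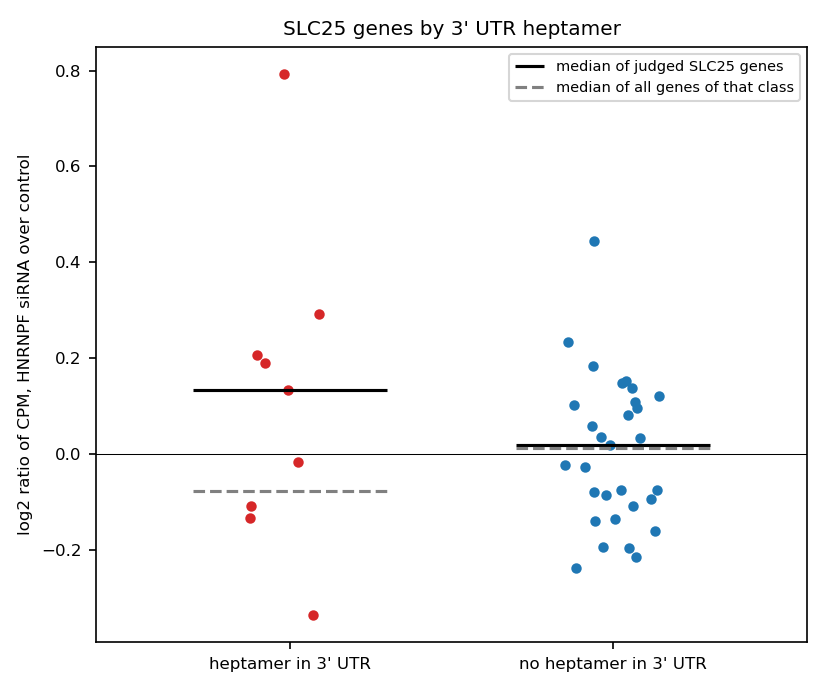
Log2 ratio of CPM, HNRNPF siRNA over control, of 39 judged SLC25 genes, with those that hold the heptamer in the 3' UTR on the left (9 points) and the others on the right (30 points). Ratios are from counts, and solid lines are medians of all judged SLC25 genes, 9 with and 31 without it (0.13 and 0.018), and dashed lines medians of all judged genes of the same class (-0.077 and 0.013).

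Base composition differed widely among the carriers, from 34.2% G and C in SLC25A40 to 65.9% in SLC25A29. Across the 40 members the log2 ratio had a Spearman's rho of 0.19 with transcript GC content and -0.041 with length, beside 0.27 and -0.11 across all 11995 judged genes with a model. These are descriptions across genes that share the same 2 libraries. Exons of 9 judged members share bases with a protein-coding gene on the opposite strand, and the sources used here do not give whether the counts were stranded. Of these 9, SLC25A21, SLC25A26, SLC25A32 and SLC25A35 are also the only judged members with estimated counts that are not whole, and their values carry this added uncertainty. SLC25A32 also shares exon bases on its own strand with the second row of that symbol.

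Genes that belong to the family under other symbols lay within the same range. UCP2, an uncoupling protein that exports short carbon acids from the matrix, had 606 and 690 counts and a log2 ratio of 0.20 (counting interval 0.039 to 0.36). UCP3 had 35 and 45 counts, and UCP1, the heat-producing form of brown fat, had 0 in both libraries. The outer membrane members MTCH1 and MTCH2, the second of which inserts proteins into that membrane, had log2 ratios of -0.047 and 0.079.

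The machinery that imports carriers was above 0 in 12 of 16 judged genes, against 50.2% of all judged genes. Its median log2 ratio was 0.062, and none differed by 1.5-fold. The interval lay above 0 for 5 of the 16 and below 0 for 2, against 21.4% and 24.4% of all judged genes. AGK, at -0.014, crosses 0 with scaling by total counts. The small outer membrane subunits TOMM7 (408 and 517 counts, log2 ratio 0.35, counting interval 0.16 to 0.54), TOMM6 (0.27) and TOMM5 (0.18) and the receptor TOMM22 (0.29) were higher, each with an interval above 0, as was TOMM20 (0.083). Lower were TIMM8A, a chaperone of the intermembrane space, with 482 and 365 counts (log2 ratio -0.39, counting interval -0.59 to -0.19), and TOMM40, the import pore, with 3351 and 2725 counts (log2 ratio -0.29, counting interval -0.36 to -0.21). Of the carrier translocase, TIMM22 was near 0, at 0.028, as were TIMM9 at 0.016, TIMM10 at 0.031 and the carrier receptor TOMM70 at 0.042. Further from 0 were TIMM29 at 0.19, TIMM13 and TIMM8B at 0.15 each and TIMM10B at -0.086, all with intervals that included 0.

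Transport systems of the same membranes outside the family also had ratios under 1.5-fold. The outer membrane pores VDAC1, VDAC2 and VDAC3, through which carrier substrates reach the inner membrane, had log2 ratios of -0.067, -0.11 and -0.055, with intervals below 0 for VDAC1 and VDAC2. The pyruvate carrier subunits MPC1 and MPC2 were at 0.12 and 0.19. Of 7 genes of the calcium uniporter 6 were below 0, with a median of -0.16, where 50.2% of all judged genes were above 0. The interval lay below 0 for 4 of the 7 and above 0 for 1, against 24.4% and 21.4% of all judged genes. The 1 above was MCUR1, at 0.11 by counts but -0.015 by the authors' FPKM. The pore subunit MCU had 1030 and 879 counts (log2 ratio -0.22, counting interval -0.35 to -0.086). The small subunit SMDT1 had 182 and 122 (log2 ratio -0.56, counting interval -0.91 to -0.23). For SMDT1 the FPKM differed less, at 6.59 and 5.82. Sideroflexins, which include the serine carrier SFXN1, were above 0 in 4 of 5 members, against 50.2% of all judged genes. The interval lay above 0 for 2 of the 5 and below 0 for 1, against 21.4% and 24.4% of all judged genes. For SFXN3, 1 of those above, the lower end was 0.0016, less than the downward shift of 0.011 with DESeq2 size factors. SFXN1 itself was at -0.13 (counting interval -0.20 to -0.060).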

How the data were processed

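Both libraries were made from oligo(dT)-selected, fragmented RNA, per the labels' protocols. Named without roles, per the submitters' processing notes, are the build GRCh38 and the tools RSEM, StringTie 1.3.1, HISAT2 and fastp 0.18.0. The authors deposited estimated counts per gene without scaling, the authors' FPKM, and the authors' log2 fold change, per the file headers. The deposited p-value and false discovery rate columns were not used, since the sources used here do not name their test.

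Estimated counts were rounded to whole numbers and scaled with edgeR 4.0.16 (TMM, its trimmed mean method; R 4.3.3) to effective library sizes of 20471737 and 20314464. Log2 ratios used a prior count of 2. For each gene, the knockdown library's share of the summed counts was given a 95% Clopper-Pearson interval (exact; scipy 1.17.1). These intervals treat reads as independent and cover counting error only. Reads without molecular identifiers are not all independent molecules, so the intervals may be too narrow even for that error. No test was run, since each group held 1 library; the ratio calculation was checked on simulated data. The implied length is the count divided by FPKM and library total, for genes at 20 counts and 0.3 FPKM in both libraries. Gene models came from GENCODE release 29.

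Every judged member is named except 1, which is not reported here or drawn in the figures but stays in the counts and medians. Counts and intervals are given for the 6 highest and 6 lowest ratios among members at 100 counts, the 6 most abundant members and members past 1.5-fold. In the transport groups they are given for some further members, and the rest have a log2 ratio alone. The members and lists were chosen with earlier results of these data known. Alternatives were total-count and DESeq2 1.42.0 scaling, prior counts of 0.5 and 5, other minimums and folds, the authors' FPKM, and whole counts alone.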

Additional observations from a re-analysis of the deposited data

How the results depend on the processing

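No paired analysis was possible because each group held 1 library, and for the same reason no replicate could be left out. The count of members at least 1.5-fold higher, 1, was 2 with no minimum, when SLC25A41 with 0 and 1 count entered. At 2-fold it was 0, and past 0.32 on the log2 scale 2 were higher and 1 lower. Total counts, DESeq2 size factors, prior counts of 0.5 and 5, a minimum of 100 counts, the authors' FPKM and whole counts alone left 1 member higher and 0 lower at 1.5-fold. The count of members above control, 21 of 40, ranged from 20 to 23, but over unlike totals. It was 23 of 40 with total counts, 20 of 40 with the authors' FPKM and 20 of 38 at 100 counts. With whole counts alone it was 20 of 36, and with no minimum 23 of 50. The ADP/ATP sum ranged from 0.079 to 0.12. The family median, 0.025, was 0.051 with total counts, 0.014 with DESeq2 size factors, 0.013 with FPKM, 0.034 with whole counts alone and 0 with no minimum. Total counts and DESeq2 size factors shift all log2 ratios by a near constant that is small beside the median half-interval of 0.16. Like the prior counts, they could hardly move a gene outside its interval, and all 78 single genes stayed inside under each. With the authors' FPKM 72 of the 78 stayed inside. With the authors' FPKM, SLC25A16 changed sign to -0.46 and MCUR1, a regulator of the calcium uniporter at 0.11 by counts, to -0.015; SLC25A3 (-0.23), SLC25A30 (-0.37), AGK (0.15) and SMDT1 (-0.18) moved outside their intervals under the same alternative, and SLC25A45 (0.33) and SLC25A38 (-0.030), with intervals that include 0, changed sign. AGK, at -0.014 by counts, was within counting error of 0. The summed ratio of all SLC25 rows turned from -0.025 to 0.00073 with total counts; that check and the FPKM values of groups were added after seeing the data. The cause was not tested. With 1 library per group the spread between cultures is unknown, so ratios of this size are not shown to exceed it.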

Other observations

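SLC25A27 has a neighbour within 2 kb on the opposite strand, CYP39A1, an oxysterol hydroxylase gene. CYP39A1 had 48 counts in control cells and 66 after HNRNPF siRNA, a log2 ratio of 0.45 with a 95% interval of -0.088 to 1.04, which includes both 0 and the ratio of SLC25A27. RANGRF, whose exons share 1293 bases with those of SLC25A35 on the opposite strand, had 290 and 360 counts (log2 ratio 0.32, 95% interval 0.096 to 0.55), while SLC25A35 had 122 and 110. These neighbours were chosen after their values were seen, and whether the shared bases bear on either ratio was not tested.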
